A study of Rattus norvegicus with 16 samples.

Results

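The genes described here were 40 cell cycle and proliferation genes, of which 14 act mainly in DNA synthesis (S-phase members) and 26 mainly in mitosis (mitotic members). A gene was measured where a probe of the array carries a RefSeq transcript of that gene, and 37 of the 40 had such a probe, 13 of the S-phase and 24 of the mitotic members, among 16672 genes named on the array. No probe was matched to Top2a, Melk or Mcm5. The 37 measured members had 53 probes, 13 members had more than 1, and the brightest probe stood for its gene, which was the same probe in both tissues for 37 of 37 members. The members were listed by name and known phase, with earlier results of these data known.

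The arrays measured lung and adipose tissue RNA from 8 male Brown Norway rats, with 1 array per rat and tissue. Their stated age of 7 weeks reads as the age at the start, since the tissue was taken after the weeks of treatment below. House dust mite extract (HDM) was given to 5 rats, 45 µg under the skin in aluminum hydroxide once a week for 3 weeks and then 120 µg into the nose 3 times a week for 3 weeks (HDM rats). The other 3 rats received saline in aluminum hydroxide and then saline into the nose on the same schedule (control rats), so rats of both groups received the adjuvant and were of the same strain. Values are log2 probe signals minus the 75th percentile of the array, so 0 is the level of that percentile and a difference of 1 is a doubling. A level can be compared between rats for the same probe but not between probes. A probe was called changed at an adjusted p below 0.05 in limma, with adjustment over all 45598 probes, and a fold above 1.5.

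A dividing cell copies its DNA in S phase and separates the copies in mitosis. Cyclins E1 and E2 open S phase with the transcription factor E2F1, the MCM proteins form the helicase that unwinds DNA at licensed origins, PCNA clamps the polymerase to DNA, and ribonucleotide reductase, thymidylate synthase and thymidine kinase supply nucleotides. Entry into mitosis is driven by CDK1 with cyclins A2, B1 and B2 and by the kinases PLK1, AURKA and AURKB, the spindle is built and moved by kinesins, BUB1 and BUBR1 (Bub1b) hold the spindle checkpoint, and CDC20 with UBE2C then marks cyclins for destruction. FOXM1 is a transcription factor of the mitotic genes, and Ki-67 (Mki67) is the antigen by which pathologists count dividing cells. In the adult lung and in fat few cells divide at any time, and allergen inflammation brings in blood cells that have largely stopped dividing, such as neutrophils and eosinophils.

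The level of these genes in a whole tissue follows both the share of dividing cells and the RNA each of them holds, and a smaller share of cycling cells cannot be told apart from less RNA per cycling cell. In the lung, 35 of the 37 members were well above background on all 8 arrays, and in adipose tissue 27 were. No member was saturated on any array. Each tissue lay on its own slide, and in each tissue HDM rats 1 to 4 lay on the first row of the slide while HDM rat 5 and the 3 control rats lay on the second row. The labels do not say that replicates came from separate cages or days, so a p-value measures the spread between these 8 rats. The labelled tissues held their own markers, since the surfactant gene Sftpc lay between 8.91 and 9.25 in the lungs and adiponectin (Adipoq) between 8.45 and 9.34 in adipose tissue. Adipose tissue of HDM rat 1 and control rat 1 also held the epididymis marker Lcn5 at 9.59 and 10.48, against −5.06 to 4.82 in the other 6 rats, so results in adipose tissue are also given without these 2 rats.

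In the lung, 0 of the 37 members were called changed by HDM, against 0.855% of all probes. With limma's unadjusted p, 4 of 37 members were below 0.05, against 10.2% of all probes, and the methods' t-test called 0 members too, both with adjustment over all probes and with adjustment over the probes past 1.5-fold. All 4 were lower in HDM rats, namely Ccne2, Cdc20, Kif11 and Bub1. Values of HDM and control rats did not overlap for 3 members, Ccne2, Cdc20 and Mcm3, against 9.61% of all probes. The log2 fold change was below 0 for 19 of 24 mitotic members, with a median of −0.22, and for 7 of 13 S-phase members, with a median of −0.03 that turned to 0.02 with normexp and quantile normalization, while over all probes the median was 0.003 and 49.3% were lower. No member of the mitotic list passed the 1.5-fold threshold, and 1 S-phase member did.

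**Figure D1:**
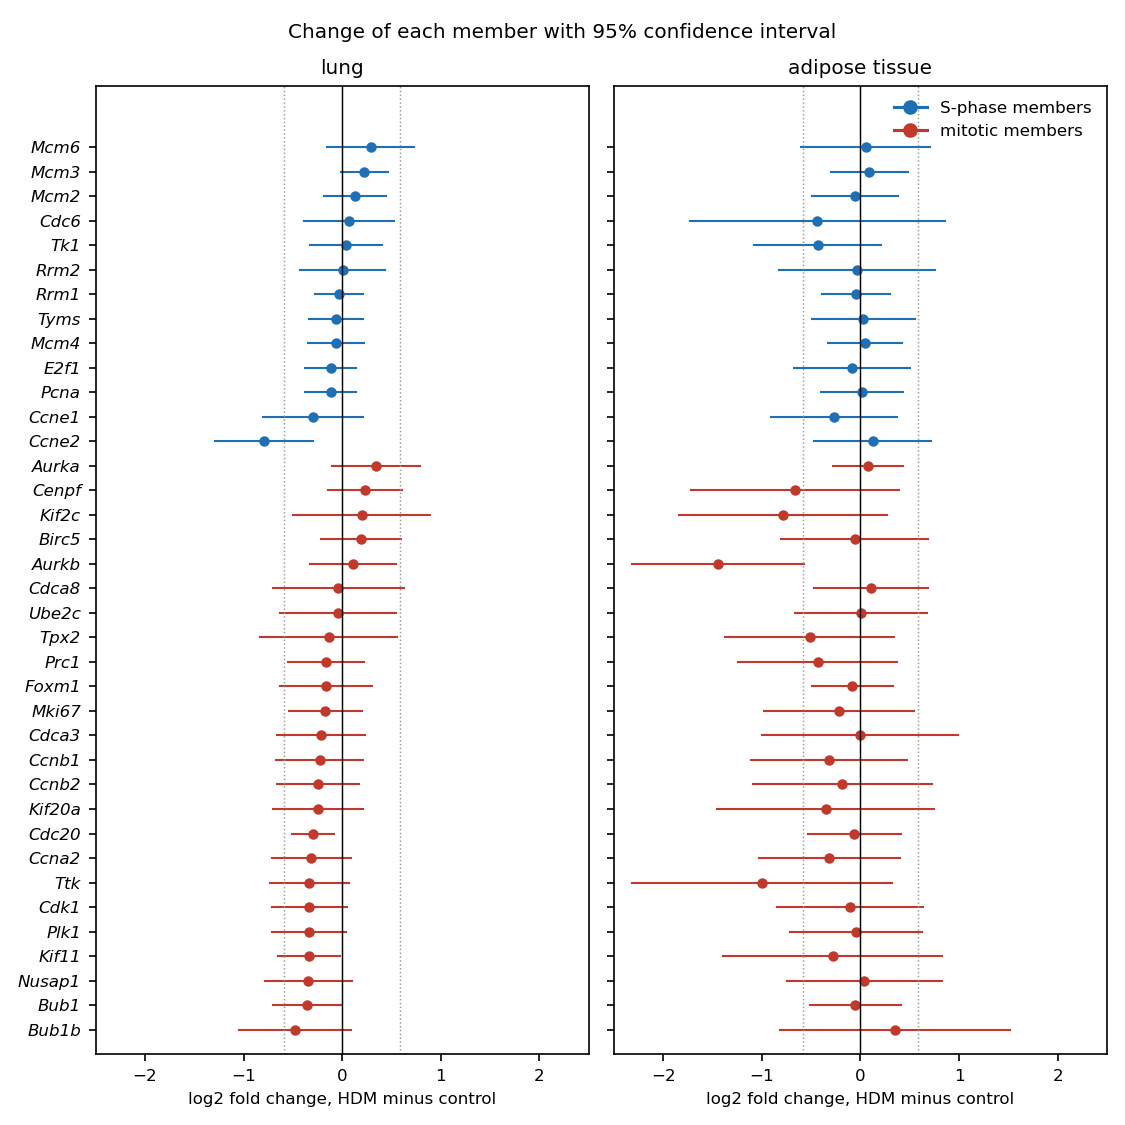
Log2 fold change of each of the 37 members (HDM rats minus control rats, n = 5 and 3) in lung (left) and adipose tissue (right), with points for the estimates and lines for the 95% confidence intervals of limma. Blue marks S-phase and red mitotic members, and dotted lines mark 1.5-fold. Ccne2 in the lung and Aurkb in adipose tissue lie farthest from 0, at −0.79 and −1.44, and neither was called.

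The G1/S cyclins held the widest change in the lung. Cyclin E2 (Ccne2), which activates CDK2 at the start of S phase, had values of −3.00, −2.76, −2.30, −2.61 and −3.26 in the 5 HDM rats and −1.88, −2.15 and −1.94 in the 3 control rats. Every HDM rat lay below every control rat, with HDM rat 5 lowest. The log2 fold change was −0.79 (SE 0.215, 95% confidence interval −1.29 to −0.30), or 0.577-fold, with an adjusted p of 0.191 in limma. Where p-values were adjusted only over the probes that pass 1.5-fold, the adjusted p of Ccne2 was 0.0259, and with array weights it was 0.0496. The filter on fold uses the same comparison as the test, so an adjusted p after it is less strict than it reads. With the methods' t-test adjusted over the probes past 1.5-fold the adjusted p was 0.0541. With normexp and quantile normalization the log2 fold change was −0.47, which is under 1.5-fold. On the slide row that HDM rat 5 shared with the control rats the difference was −1.27. The sister gene Ccne1 stood at −2.77, −2.50, −2.35, −2.72 and −2.22 in HDM rats and at −1.71, −2.42 and −2.52 in control rats. These groups overlapped, since only control rat 1 lay above all HDM rats, and the log2 fold change was −0.29 (SE 0.22, adjusted p = 0.807). E2F1, which drives transcription of both cyclins and of many replication genes, had 0.09, 0.06, 0.22, 0.36 and 0.21 in HDM rats and 0.37, 0.18 and 0.37 in control rats, which overlapped, with a log2 fold change of −0.12 (SE 0.111, adjusted p = 0.881).

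The helicase genes ran the other way in sign. Mcm3 had 1.61, 1.58, 1.51, 1.54 and 1.71 in HDM rats against 1.49, 1.35 and 1.25 in control rats. The HDM rats all lay above the control rats, but by little, with a log2 fold change of 0.23 (SE 0.103, adjusted p = 0.522). Its second probe also gave 0.23, with an adjusted p of 0.899. Mcm6, another subunit of the helicase, had −1.88, −2.10, −1.76, −1.25 and −1.55 in HDM rats and −2.04, −2.06 and −1.90 in control rats, with HDM rat 2 below every control rat and a log2 fold change of 0.29 (SE 0.192, adjusted p = 0.752). Mcm2 was at 1.68, 1.73, 1.58, 2.07 and 1.94 in HDM rats and at 1.69, 1.73 and 1.61 in control rats, a log2 fold change of 0.13 (SE 0.136, adjusted p = 0.905). Of the 5 genes for origin licensing and the helicase, the log2 fold change was above 0 for 4, Cdc6 among them at 0.07, and −0.06 for Mcm4 by its brightest probe. The probes of Mcm4 disagreed, with −0.06 for a second one and 0.54 for the dimmest (adjusted p = 0.27).

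By their brightest probes, the clamp and nucleotide genes lay close to the control level. PCNA had 2.51, 2.57, 2.85, 2.52 and 2.59 in HDM rats against 2.74, 2.72 and 2.72 in control rats, so HDM rat 3 lay above and the other HDM rats below the controls. Its log2 fold change was −0.12 (SE 0.11, 95% confidence interval −0.37 to 0.14). Rrm2, the regulated subunit of ribonucleotide reductase, had 0.86, 1.13, 1.39, 1.14 and 0.96 in HDM rats and 1.49, 0.93 and 0.85 in control rats, which overlapped throughout, with a log2 fold change of 0.01 (SE 0.186). Rrm1, Tyms and Tk1 differed by −0.03, −0.06 and 0.04. Second probes gave 0.34 for Rrm2 and 0.31 for Tk1 (adjusted p = 0.805 and 0.927 in limma), and −0.07 for Rrm1. The 95% confidence interval lay within 1.5-fold in both directions for 10 of the 13 S-phase members, the exceptions being Ccne1, Ccne2 and Mcm6. For the mitotic members this held for 4 of 24.

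Among the mitotic kinases and cyclins of the lung, 6 of 7 were lower in HDM rats. CDK1 had 0.48, 0.71, 0.97, 0.79 and 0.64 in HDM rats against 1.38, 0.86 and 0.92 in control rats. HDM rat 3 was the only HDM rat inside the range of the controls, and the log2 fold change was −0.33 (SE 0.164, 95% confidence interval −0.71 to 0.04, adjusted p = 0.576). Polo-like kinase 1 (Plk1), which triggers mitotic entry and spindle assembly, had −1.83, −1.38, −1.45, −1.27 and −1.38 against −0.87, −1.17 and −1.33, and likewise only HDM rat 4 reached the control range. Its log2 fold change was −0.33 (SE 0.163, adjusted p = 0.572). Cyclin B1 (Ccnb1) had −3.24, −2.65, −2.59, −2.80 and −2.82 against −2.29, −2.87 and −2.61 with a log2 fold change of −0.23 (SE 0.19), and cyclins A2 and B2 differed by −0.31 and −0.24. Aurka, the kinase of the spindle poles, stood apart with 0.06, −0.01, 0.56, −0.08 and −0.34 in HDM rats against −0.21, −0.35 and −0.36 in control rats. Only HDM rat 5 lay among the controls, and the log2 fold change was 0.34 (SE 0.193, adjusted p = 0.668).

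CDC20, the activator of the anaphase-promoting complex, had the smallest SE of the 24 mitotic members in the lung. Its values were −1.12, −1.08, −1.08, −0.99 and −1.15 in HDM rats and −0.72, −0.87 and −0.77 in control rats. No HDM rat reached the lowest control rat. The log2 fold change was −0.30 (SE 0.0934, 95% confidence interval −0.51 to −0.08), or 0.814-fold, with an adjusted p of 0.277. The spindle checkpoint kinase Bub1 had −1.82, −1.58, −1.26, −1.45 and −1.67 against −1.08, −1.38 and −1.14, with HDM rat 3 alone inside the control range and a log2 fold change of −0.35 (SE 0.151, adjusted p = 0.482). Bub1b had −4.39, −4.72, −3.92, −3.91 and −4.09 against −3.29, −3.87 and −4.04. It was dim, well above background in 4 of 5 HDM rats and 3 of 3 control rats, and its log2 fold change was −0.48 (SE 0.245, adjusted p = 0.607).

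Of the 6 kinesin and spindle genes, 5 were lower. Kif11, the motor that pushes the spindle poles apart, had −2.81, −2.57, −2.77, −2.62 and −2.83 in HDM rats against −2.14, −2.39 and −2.62 in control rats, with HDM rat 2 alone above the lowest control rat and a log2 fold change of −0.34 (SE 0.136, adjusted p = 0.442). Nusap1, a microtubule-binding protein of the spindle, had −2.29, −1.94, −1.68, −1.68 and −1.92 against −1.22, −1.80 and −1.67, a log2 fold change of −0.34 (SE 0.19, adjusted p = 0.662). Ki-67 and Foxm1 differed less. Mki67 had −0.74, −0.43, −0.56, −0.29 and −0.47 against −0.01, −0.41 and −0.58, a log2 fold change of −0.17 (SE 0.162, adjusted p = 0.877), and its other 3 probes gave −0.12 to −0.31. Foxm1 had −2.28, −1.88, −1.90, −1.76 and −1.67 against −1.37, −1.70 and −2.13, a log2 fold change of −0.16 (SE 0.203, adjusted p = 0.925). The remaining mitotic members lay between −0.33 for Ttk and 0.23 for Cenpf, namely Kif20a at −0.25, Cdca3 at −0.22, Prc1 at −0.16, Tpx2 at −0.14, Cdca8 and Ube2c at −0.04, Aurkb at 0.11, Birc5 at 0.19 and Kif2c at 0.20, and all had an adjusted p above 0.05.

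**Figure D2:**
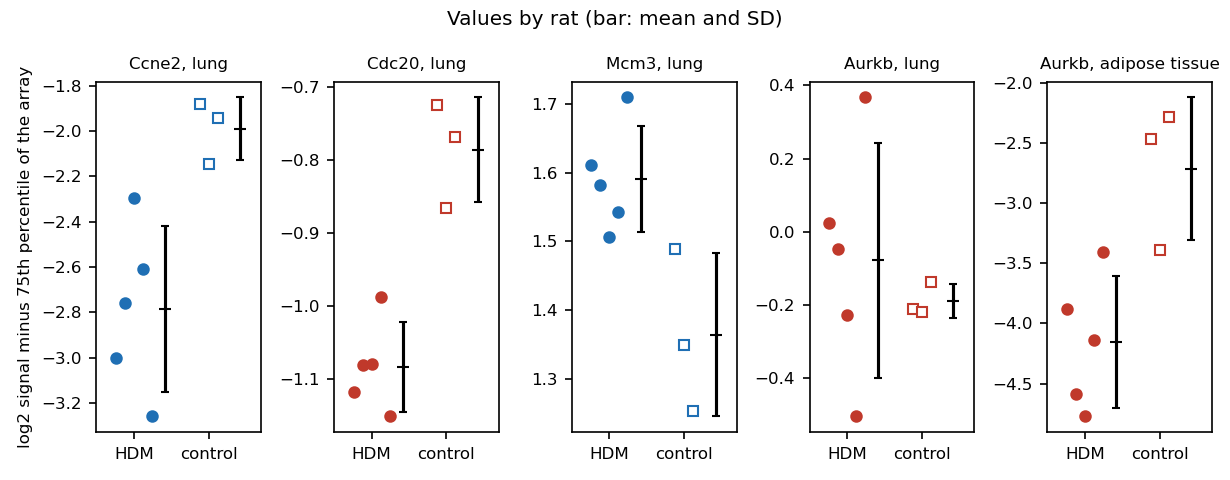
Log2 signal minus the 75th percentile of the array in each rat for Ccne2, Cdc20, Mcm3 and Aurkb in the lung and Aurkb in adipose tissue, with filled circles for HDM rats (n = 5), open squares for control rats (n = 3) and bars for the mean and SD. The vertical scales differ. HDM and control rats do not overlap in the panels of Ccne2, Cdc20, Mcm3 and Aurkb in adipose tissue, and overlap for Aurkb in the lung.

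The mitotic members moved together from rat to rat. Correlations over the 8 lungs were taken after the HDM mean and the control mean of each gene were removed. Their median over pairs was 0.53 among the mitotic members and 0.27 among the S-phase members, a description over members that share the same 8 arrays. Lung control rat 1 had the highest value of the 8 rats for 19 of 24 mitotic and 7 of 13 S-phase members, and HDM rat 1 the lowest for 14 of 24 mitotic members. The median of the mitotic members against the control mean was 0.30 in control rat 1, and −0.13 and −0.14 in the other two control rats. In the HDM rats it was −0.47, −0.21, −0.10, −0.13 and −0.22. Hence HDM rat 3 lay above control rats 2 and 3, and HDM rat 4 lay between them. Without control rat 1 the median log2 fold change of the mitotic members was −0.08 with 14 of 24 lower, without HDM rat 1 it was −0.12, and without both it was 0.03 with 11 of 24 lower. Under every scaling of the arrays that was tried 19 of 24 mitotic members stayed below 0 in the lung, with medians between −0.27 and −0.16, whereas the S-phase median lay between −0.08 and 0.02.

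**Figure D3:**
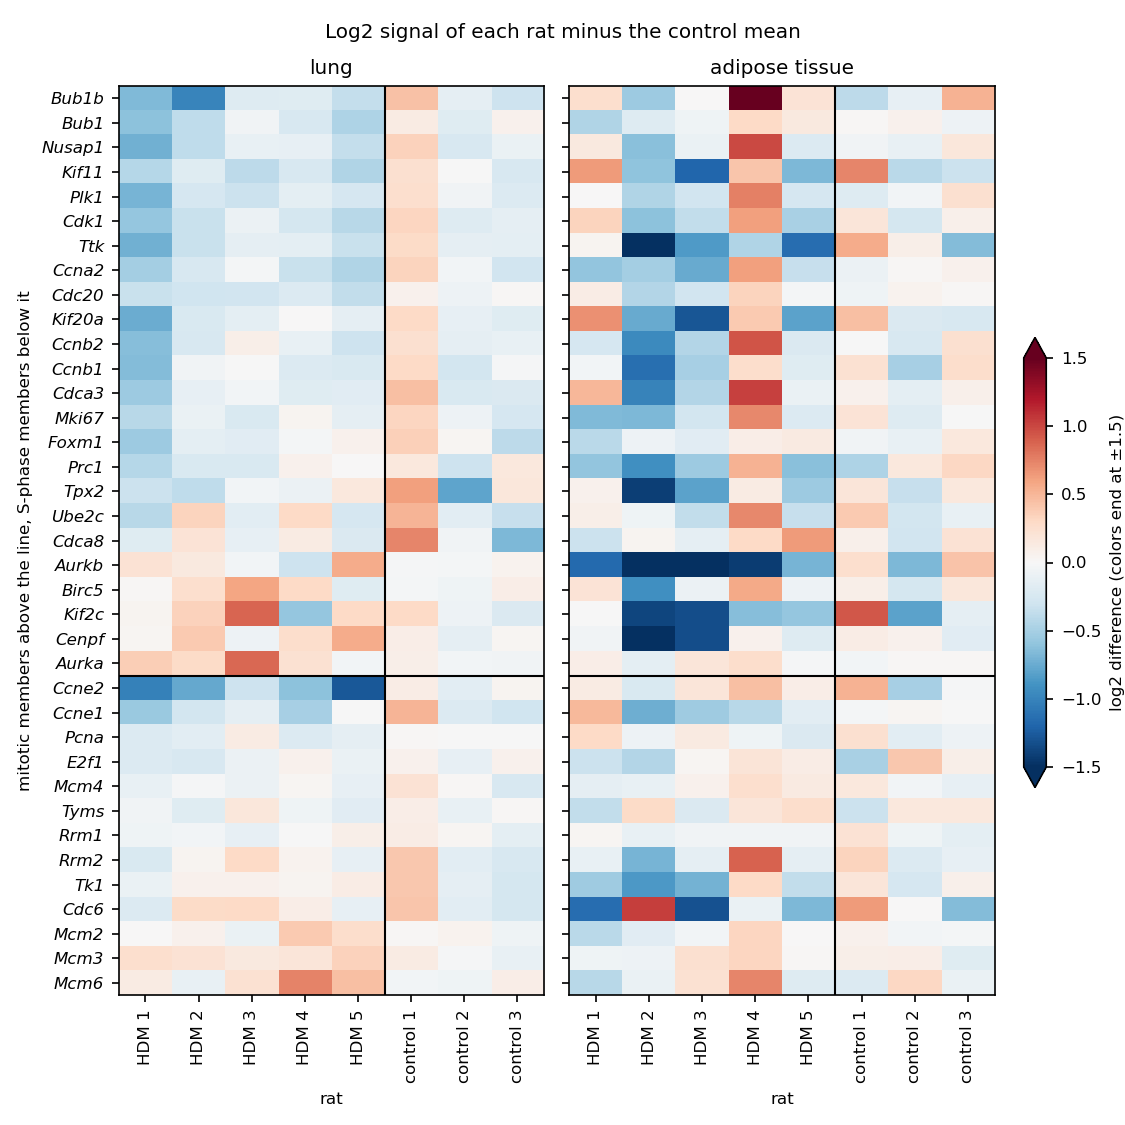
Log2 signal of each of the 37 members in each rat minus the mean of the 3 control rats, in lung (left) and adipose tissue (right). Red is above and blue below the control mean, the colors end at a difference of 1.5, the vertical line parts HDM from control rats, and the horizontal line parts mitotic (above) from S-phase members (below). In the lung most mitotic members are red in control rat 1 and blue in HDM rat 1, and in adipose tissue most are red in HDM rat 4 and blue in HDM rat 2.

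**Figure D4:**
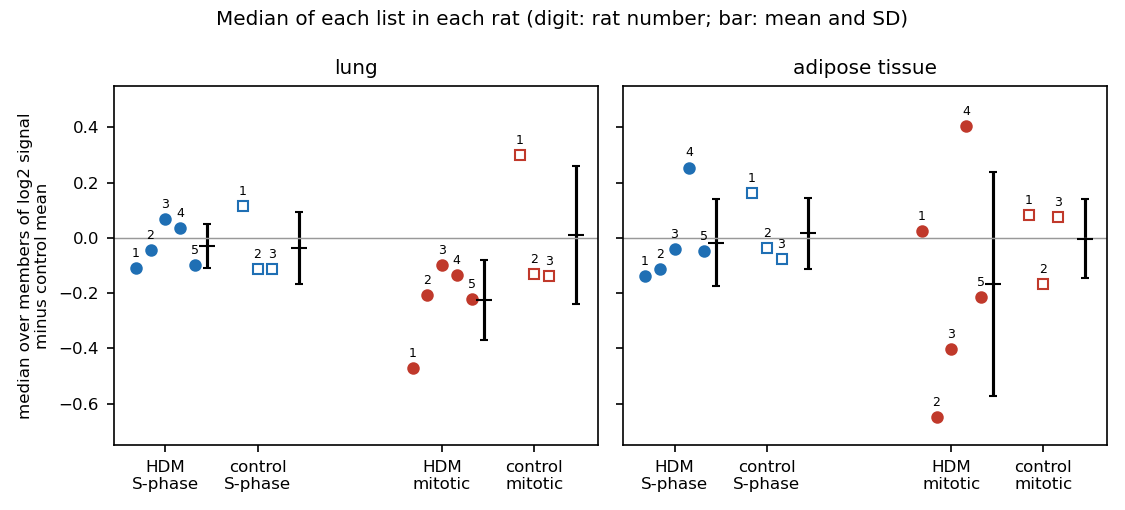
Median over the S-phase (blue) and the mitotic members (red) of the log2 signal minus the control mean, for each rat in lung (left) and adipose tissue (right). Filled circles are HDM rats (n = 5), open squares control rats (n = 3), digits the rat numbers, and bars the mean and SD over rats. The mitotic median runs from −0.47 to 0.30 in the lung and from −0.65 to 0.40 in adipose tissue, wider than the S-phase median in each tissue.

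Blood and inflammatory cell markers differed between the lungs as well. The summed level of 7 red blood cell markers, relative to the 75th percentile, was 268 in control rat 1 and 266 in HDM rat 4, against 63.1 to 149 in the other 6 rats. The summed level of 10 neutrophil markers was 131 to 278 in HDM lungs against 15.7 to 16.5 in control lungs. Of the 10, 6 were called higher, led by S100a8 with a log2 fold change of 4.46, and 1, Fpr1, differed by −0.66 (adjusted p = 0.0877). The 3 measured markers of granulocyte precursors, which do divide, had a summed level of 0.0339 to 0.0792 in HDM rats and 0.034 to 0.0488 in control rats, and as 2 of the 3, Elane and Ctsg, were at background on all 8 arrays these sums are near the floor of the arrays. HDM lungs also had higher summed eosinophil markers, 3.16 to 4.93 against 1.58 to 2.45 in control lungs. B cell markers were at 6.57 to 8.2 against 5.8 to 6.37, and macrophage markers at 24.8 to 26.5 against 21.9 to 23.9. Plasma cell markers were lower, at 11.6 to 12.7 against 14.2 to 14.7, and the other marker lists overlapped. By limma 1 of 6 eosinophil and 1 of 8 lymph node and germinal center markers were called higher, against 0.855% of all probes. The part of these cells in the values of the cell cycle genes was not tested.

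Since the mitotic members moved together, the sequences in front of them are shown. In dividing cells the MuvB complexes, with B-MYB and FOXM1, act on mitotic genes through the CHR element TTTGAA, often beside CCAAT boxes bound by NF-Y, and E2F acts on S-phase genes through sites such as TTCGCGC and TTGGCGC. These 4 strings were searched on both strands in the 250 bases before the annotated start of each gene (RefSeq, build GRCr8), which were at hand for 30 of the 40 members, 21 mitotic and 9 S-phase. Matches may overlap, and TTCGCGCGAA counts as 2 E2F matches. The CHR letters stood in 8 of 21 mitotic promoters (38.1%), 1 of 9 S-phase promoters (11.1%) and 16.2% of all 33469 promoters. The CCAAT letters stood in 16 of 21 (76.2%), 5 of 9 (55.6%) and 34% of all, and CHR and CCAAT together in 8 of 21, 0 of 9 and 5.87% of all. The E2F letters stood in 2 of 21 mitotic (9.52%), 4 of 9 S-phase (44.4%) and 2.9% of all promoters. The promoters of 3 mitotic members with CHR and CCAAT letters and of 2 helicase members with E2F letters follow, with the matched letters of any of these strings in capitals and the last base next to the start of transcription.
Cdk1 (chr20:19265043-19265292, plus strand): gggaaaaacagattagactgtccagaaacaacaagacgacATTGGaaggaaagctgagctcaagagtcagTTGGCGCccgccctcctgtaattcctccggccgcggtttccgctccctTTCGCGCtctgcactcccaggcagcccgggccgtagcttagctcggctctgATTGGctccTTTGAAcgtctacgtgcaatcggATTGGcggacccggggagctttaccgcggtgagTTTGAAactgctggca
Ccnb2 (chr8:79981659-79981908, minus strand): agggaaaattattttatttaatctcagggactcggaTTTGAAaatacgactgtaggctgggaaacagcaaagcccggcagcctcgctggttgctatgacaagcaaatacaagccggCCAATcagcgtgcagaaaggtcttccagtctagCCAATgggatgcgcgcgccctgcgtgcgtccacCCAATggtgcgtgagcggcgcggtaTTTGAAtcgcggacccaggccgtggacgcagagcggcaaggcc
Cdc20 (chr5:137255800-137256049, minus strand): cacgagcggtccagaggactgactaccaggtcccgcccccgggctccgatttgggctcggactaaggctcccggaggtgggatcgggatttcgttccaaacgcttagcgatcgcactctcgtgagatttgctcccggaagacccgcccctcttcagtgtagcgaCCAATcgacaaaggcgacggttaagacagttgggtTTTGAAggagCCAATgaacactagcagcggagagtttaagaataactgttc
Mcm2 (chr4:122918095-122918344, minus strand): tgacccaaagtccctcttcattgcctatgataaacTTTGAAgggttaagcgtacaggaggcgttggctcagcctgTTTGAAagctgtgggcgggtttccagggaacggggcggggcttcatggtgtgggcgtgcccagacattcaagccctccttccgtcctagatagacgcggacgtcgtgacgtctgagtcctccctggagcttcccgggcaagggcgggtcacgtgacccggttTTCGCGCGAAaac
Mcm6 (chr13:42404353-42404602, minus strand): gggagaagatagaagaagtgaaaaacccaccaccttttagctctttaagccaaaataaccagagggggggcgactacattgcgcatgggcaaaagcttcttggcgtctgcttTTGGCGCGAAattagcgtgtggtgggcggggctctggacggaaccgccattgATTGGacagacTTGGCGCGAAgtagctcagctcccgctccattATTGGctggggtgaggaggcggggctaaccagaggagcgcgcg

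These matches describe the letters of a fixed window. Cdk1 held all 3 kinds of string, Ccnb2 and Cdc20 CHR and CCAAT letters only, and Mcm6 E2F and CCAAT letters. Mcm2 held E2F and also CHR letters. In the lung the log2 fold changes of Cdk1, Ccnb2 and Cdc20 were −0.33, −0.24 and −0.30, and those of Mcm2 and Mcm6 were 0.13 and 0.29. Each of these 5 had an adjusted p above 0.05. Among the members not printed, Birc5 with CHR and CCAAT letters stood at 0.19, and Cdca8 and Prc1 with the same letters at −0.04 and −0.16. Mki67, with all 3 kinds of string, stood at −0.17, and Tyms with E2F letters at −0.06. Mitotic members whose promoters held no CHR letters ran from −0.48 for Bub1b to 0.34 for Aurka in the lung. Among them Bub1, Kif11, Nusap1, Plk1 and Ttk stood at −0.35 to −0.33, as low as the printed members with CHR letters. The signs therefore did not follow the letters in every member.

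In adipose tissue, 0 of the 37 members were called changed, against 0% of all probes in limma. At an unadjusted p below 0.05 there was 1 member, Aurkb, against 9.9% of all probes, and the methods' t-test called 0 of the 37. Aurkb was also the only member whose groups did not overlap, against 6.26% of all probes. The mitotic members had a median log2 fold change of −0.14 with 19 of 24 below 0, and the S-phase members −0.04 with 7 of 13 below 0, directions that turned with scaling to the array median. Over all probes of this tissue the median was −0.15 and 64.2% were lower. Over the 20540 probes well above background on every adipose array the median was 0.03. Of the mitotic members, 15 of 24 were that bright, so neither background alone fits the share of lower mitotic members. Scaling to the array median moved the median of all probes to 0.14, the mitotic median to 0.15 and the S-phase median to 0.26, and then 9 of 24 mitotic and 2 of 13 S-phase members were below 0.

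Aurora kinase B (Aurkb), the enzyme of the chromosomal passenger complex that corrects chromosome attachment, had −3.88, −4.59, −4.77, −4.13 and −3.41 in the adipose tissue of HDM rats and −2.46, −3.39 and −2.29 in control rats. HDM rat 5 and control rat 2 nearly met. Every HDM rat still lay below every control rat. The log2 fold change was −1.44 (SE 0.379, 95% confidence interval −2.32 to −0.57), or 0.368-fold, with an adjusted p of 0.33. Its probe was well above background in 2 of 5 HDM rats and 3 of 3 control rats, so the level in the other 3 HDM rats is only bounded by the background. With background correction by normexp the log2 fold change was −0.23, and on the slide row shared with the control rats it was −0.69. Without HDM rat 1 and control rat 1 it was −1.39 (adjusted p = 0.673). The other members of that complex, Birc5 and Cdca8, differed by −0.06 and 0.10.

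The other members past 1.5-fold in adipose tissue were Ttk, Kif2c and Cenpf, all mitotic and all dim. Ttk, a kinase of the spindle checkpoint, had −3.15, −5.77, −4.04, −3.65 and −4.34 in HDM rats against −2.63, −3.10 and −3.84 in control rats. HDM rat 1 lay within the control range, as did HDM rat 4, and the log2 fold change was −0.997 (SE 0.573, adjusted p = 0.627). It was well above background in 3 of 5 HDM and 3 of 3 control rats. Kif2c and Cenpf differed by −0.79 (SE 0.457) and −0.66 (SE 0.459) and were well above background in 2 and 1 of 3 control rats. For Bub1b none of the control arrays was well above background, so no fold is given.

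Prc1, which bundles microtubules of the central spindle, had −2.33, −2.66, −2.29, −1.21 and −2.37 in HDM rats against −2.21, −1.59 and −1.43 in control rats. HDM rat 4 lay above and the other 4 below all controls, with a log2 fold change of −0.43 (SE 0.349, adjusted p = 0.753). Kif20a, a kinesin of cell division, was −0.999 in HDM rat 1 and −1.24 in control rat 1, with −2.45, −2.97, −1.29 and −2.49 in HDM rats 2 to 5 and −1.90 and −1.92 in control rats 2 and 3, a log2 fold change of −0.35 (SE 0.478, adjusted p = 0.82). Its 2 highest values were thus those of the 2 rats with the highest epididymis markers. The summed level of 10 markers of sperm formation was 10.1 in HDM rat 1 and 13.2 in control rat 1, against 0.349 to 0.939 in the other 6 rats. The part of that tissue in these values was not tested.

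The best known proliferation markers overlapped between the groups in adipose tissue. Mki67 had −1.36, −1.37, −0.98, 0.03 and −0.91 in HDM rats against −0.50, −0.89 and −0.71 in control rats, a log2 fold change of −0.22 (SE 0.329, adjusted p = 0.822). Cdk1 had 0.36, −0.58, −0.33, 0.65 and −0.45 against 0.22, −0.23 and 0.11, a log2 fold change of −0.10 (SE 0.321). HDM rat 4 was the highest of all 8 rats for both genes. Ccnb1 had −3.16, −4.25, −3.62, −2.85 and −3.31 against −2.89, −3.62 and −2.86 (log2 fold change −0.32, SE 0.342), and Plk1 had −2.24, −2.70, −2.53, −1.49 and −2.50 against −2.44, −2.29 and −2.01 (log2 fold change −0.05, SE 0.289). Foxm1 had −2.38, −2.04, −2.14, −1.87 and −1.84 against −2.03, −2.08 and −1.81, a log2 fold change of −0.08 (SE 0.179). A second, dim probe of Foxm1, well above background on 2 of 8 arrays, gave 1.04 (adjusted p = 0.701). The mitotic members not named so far lay between −0.52 for Tpx2 and 0.08 for Aurka, with Ccna2 at −0.32, Kif11 at −0.28, Ccnb2 at −0.18, Cdc20 at −0.06, Bub1 at −0.05, Nusap1 at 0.04, Ube2c at 0.01 and Cdca3 at −0.003.

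HDM rat 4 had the highest value of the 8 adipose samples for 15 of 24 mitotic and 6 of 13 S-phase members, and HDM rat 2 the lowest for 16 of 24 mitotic members. The median of the mitotic members against the control mean was 0.03, −0.65, −0.40, 0.40 and −0.21 in the HDM rats and 0.08, −0.17 and 0.08 in the control rats. The HDM rats thus reached both above and below the whole range of the control rats. The array of HDM rat 2 had 1224 outlier spots against 355 to 444 on the other adipose arrays, and the part of that in these values was not tested. In HDM rat 4 the summed levels of macrophage markers (242 against 53.8 to 210 in the other 7 rats), of lymph node and germinal center markers (14.5 against 5.79 to 11.1), of eosinophil markers (2.32 against 0.677 to 1.49) and of fibroblast markers (639 against 216 to 562) were also the highest. The other marker lists were not highest in this rat, and plasma cell markers were lowest, at 16.8 against 17.6 to 54.3. Of the 6 eosinophil markers, 2 were well above background on every adipose array and 2 on none. Of the 8 lymph node and germinal center markers, 4 were so on every adipose array and 3 on none. The part of these cells was not tested either. The median pairwise correlation over the 8 rats, again with the group means removed, was 0.61 among mitotic and 0.21 among S-phase members. Without HDM rat 4 the mitotic median was −0.37, without HDM rat 2 it was −0.05, and without both it was −0.22. Without HDM rat 3 it was −0.06, without control rat 2 it was −0.27, and without control rat 3 it was −0.08. Without HDM rat 1 and control rat 1 it was −0.14.

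By their brightest probes, S-phase members of adipose tissue stayed near the control level. Pcna had 2.22, 1.85, 2.06, 1.86 and 1.70 in HDM rats against 2.16, 1.76 and 1.85 in control rats (log2 fold change 0.02, SE 0.182). Mcm2 had 1.39, 1.62, 1.75, 2.11 and 1.80 against 1.86, 1.75 and 1.76 (−0.06, SE 0.188). Neither moved beyond the spread of its group. Rrm2 had −0.29, −0.88, −0.31, 0.71 and −0.31 against 0.16, −0.39 and −0.31 (log2 fold change −0.04, SE 0.342), with HDM rat 4 again the highest. E2f1 had 0.22, 0.10, 0.56, 0.73 and 0.65 against 0.04, 0.94 and 0.62 (−0.08, SE 0.254). Ccne1 had −0.85, −2.07, −1.87, −1.75 and −1.49 against −1.36, −1.30 and −1.34, and 4 of 5 HDM rats lay below all controls while HDM rat 1 lay above them (log2 fold change −0.27, SE 0.276). Cdc6, the loader of the helicase, had −4.88, −2.70, −5.04, −3.84 and −4.41 against −3.10, −3.73 and −4.39, with HDM rats on both sides of the controls and a log2 fold change of −0.44 (SE 0.56, adjusted p = 0.82). It was well above background in 2 of 5 HDM rats. Thymidine kinase (Tk1) had −1.48, −1.80, −1.65, −0.64 and −1.32 against −0.76, −1.20 and −0.87, where HDM rat 4 lay above and the other 4 below all controls (log2 fold change −0.43, SE 0.278, adjusted p = 0.674). Mcm3, Mcm4, Mcm6, Rrm1 and Tyms differed by 0.09, 0.04, 0.05, −0.05 and 0.03.

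Ccne2, the S-phase member with the widest change in the lung, had −2.78, −3.13, −2.72, −2.45 and −2.80 in the adipose tissue of HDM rats and −2.38, −3.40 and −2.92 in that of control rats, a log2 fold change of 0.12 (SE 0.257, adjusted p = 0.874). To compare the changes of the 2 tissues, limma was run on each rat's lung value minus its adipose value. By limma 0 of the 37 members differed, against 0.00219% of all probes. At an unadjusted p below 0.05 there were 2 members against 7.74% of all probes. Ccne2 was lower in the lung relative to adipose tissue by a log2 difference of −0.92 (SE 0.292, 95% confidence interval −1.59 to −0.24, adjusted p = 0.535). Aurkb was the other, at 1.55 (SE 0.345, adjusted p = 0.376), with a change of 0.11 in the lung.

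In the control rats, the same probe was compared between the lung and the adipose tissue of the same animal. The 2 tissues lay on different slides, so tissue and slide cannot be told apart. Of the 37 members, 12 were called, all 12 higher in lung, against 41% of all probes in either direction. Of all 45598 probes, 4482 were called higher and 14223 lower in lung. Over all probes the median log2 difference was −0.58, while it was 0.58 for the mitotic members, with 20 of 24 higher in lung, and −0.11 for the S-phase members, with 5 of 13 higher. The median of all probes was −0.09 with dim probes left out and −0.06 with quantile normalization, so its distance from the members depends on these choices. The called members were Cdk1, Plk1, Aurkb, Bub1b, Cenpf, Nusap1, Prc1 and Ube2c of the mitotic list and Ccne2, Mcm6, Pcna and Rrm2 of the S-phase list. Aurkb had the widest gap, −0.21, −0.22 and −0.14 in the 3 lungs against −2.46, −3.39 and −2.29 in adipose tissue, a log2 difference of 2.52 (SE 0.293, adjusted p = 0.014). Rrm2 had 1.49, 0.93 and 0.85 against 0.16, −0.39 and −0.31, a log2 difference of 1.27 (SE 0.195, adjusted p = 0.0206). Cdk1 had 1.38, 0.86 and 0.92 against 0.22, −0.23 and 0.11, a log2 difference of 1.02 (SE 0.204, adjusted p = 0.0262). Each of these 3 genes was higher in lung in 3 of 3 rats. Bub1b was not well above background in any adipose sample of a control rat and was at least 1.66-fold higher in lung (adjusted p = 0.0404).

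**Figure D5:**
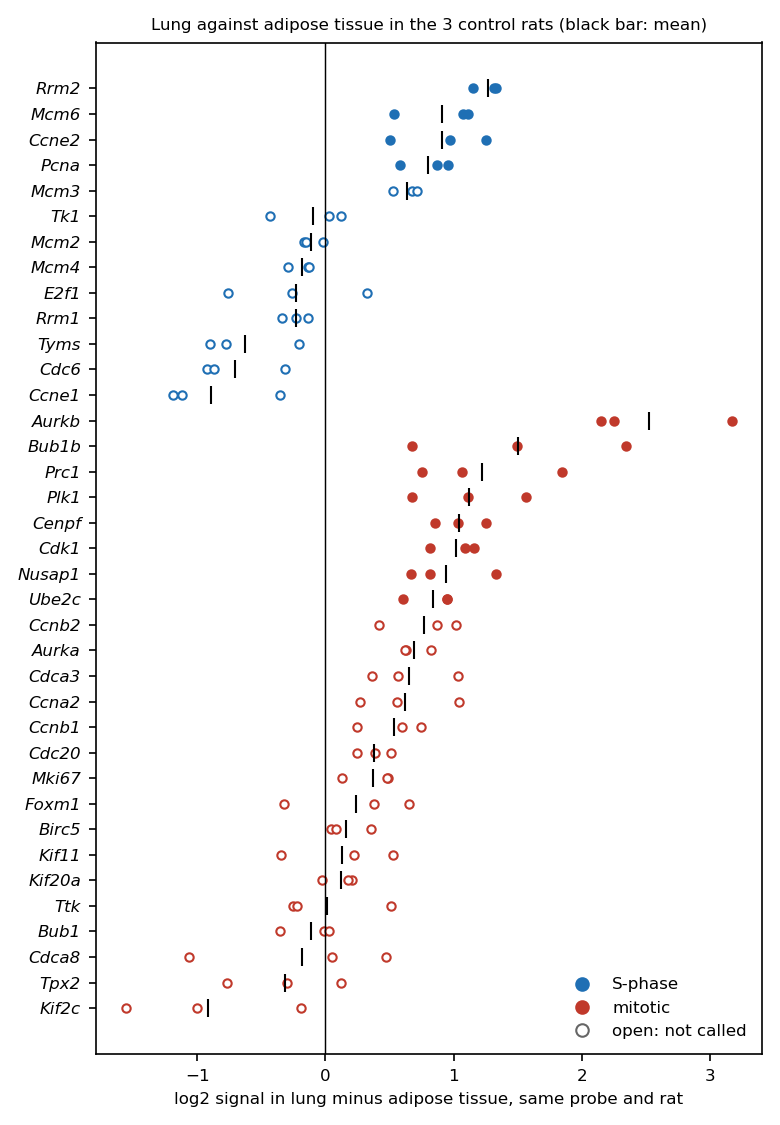
Log2 signal in lung minus log2 signal in adipose tissue of the same control rat, for the same probe of each of the 37 members. Circles are the 3 control rats, black bars their mean, blue marks S-phase and red mitotic members, and filled circles mark the 12 members called in limma. Aurkb lies farthest to the right at 2.52, and Kif2c farthest to the left at −0.92.

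Ki-67 was 0.37 higher in lung (SE 0.207, adjusted p = 0.21) and was not called. Other members were lower in lung without being called, with Kif2c at −0.92, Ccne1 at −0.89 and Cdc6 at −0.70. The count of 12 rested on all 3 rats, since 0 members were called without control rat 1 and 1 member, Aurkb, without control rat 2 or without control rat 3. It also moved with the scaling, from 5 with normexp and quantile normalization to 19 with scaling to Gapdh and Hprt1. The 12 members kept their direction in all of 120 values over the alternatives, of which 72 were called and 48 were not. As the 12 were picked by their calls in these same 3 rats, the kept direction is no separate support. Aurkb, Cdk1, Pcna and Rrm2 were called under every scaling of the arrays.

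The wider cell cycle machinery was counted on 7 lists of genes that were not members. The lists held 32, 36, 12, 8, 13, 14 and 12 measured genes. In the lung 1 gene of these lists was called, while 0.855% of all probes were called. It was Wee1, the kinase that holds CDK1 inactive before mitosis. Wee1 had 0.38, 0.45, 0.41, 0.59 and 0.62 in HDM rats against 1.07, 1.12 and 1.39 in control rats. These groups did not overlap, as for 9.61% of all probes. The log2 fold change was −0.70 (SE 0.119, adjusted p = 0.0469 in limma). The call on Wee1 was held in 12 of 26 alternatives and lost in 14. Those that held it include dropping the fold threshold and taking the probe brightest over both tissues, which left its adjusted p at 0.0469. It was lost in every alternative that left out 1 rat (adjusted p 0.0727 to 0.171). Without control rat 1 and HDM rat 1 the adjusted p was 0.335, and with the slide row as a block it was 0.606. In adipose tissue Wee1 had 0.87, 0.60, 0.80, 0.91 and 0.95 against 1.33, 1.499 and 1.79. These groups did not overlap either, as for 6.26% of all probes there. The log2 fold change was −0.71 (SE 0.169, adjusted p = 0.301). Wee1 is also known as a gene under control of the circadian clock.

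Of 32 further DNA replication genes, 0 were called in the lung by limma, against 0.855% of all probes, 6 had an unadjusted p below 0.05, all 6 of them higher, against 10.2% of all probes, and 21 lay above 0 with a median of 0.13. The widest were Clspn at −1.26 (adjusted p = 0.598), Pola1 at 0.71 (adjusted p = 0.581) and Gmnn, the inhibitor of origin licensing, at 0.62 (adjusted p = 0.204). Of 36 further mitotic genes 0 were called, 2 had an unadjusted p below 0.05, both lower, and 21 lay below 0 with a median of −0.12. Here Hmmr stood at 0.87 (adjusted p = 0.627), Kif23, a motor of the midbody, at −0.57 (adjusted p = 0.128) and Pbk at −0.57 (adjusted p = 0.747). Over all probes of the lung the median was 0.003.

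Inhibitors of cyclin-dependent kinases held 0 genes of 8 called by limma in each tissue, with 4 in the lung and 2 in adipose tissue at an unadjusted p below 0.05, which 10.2% and 9.9% of all probes had, the background for the counts of the other lists too. In the lung, p18 (Cdkn2c) had −0.86, −0.86, −1.18, −0.91 and −1.07 in HDM rats against −1.74, −1.61 and −1.47 in control rats, without overlap, and a log2 fold change of 0.63 (SE 0.123, adjusted p = 0.0722). Cdkn2a and Cdkn2d differed by 1.08 (adjusted p = 0.375) and 0.61 (adjusted p = 0.172). Cdkn1a (p21), the inhibitor induced by p53, differed by −0.22 (SE 0.144, adjusted p = 0.758) in the lung and by −0.67 (SE 0.238, adjusted p = 0.436) in adipose tissue. In adipose tissue the widest inhibitor was Cdkn3 at −1.17 (adjusted p = 0.719), and Cdkn2d was at 0.57 (adjusted p = 0.43).

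Among the 12 G1 cyclins, CDKs and their regulators measured, Wee1 was followed in the lung by Cdk6 at −0.29 (adjusted p = 0.473) and Ccnd3 at −0.24 (adjusted p = 0.618), and in adipose tissue the widest was Ccnd2 at 1.03 (adjusted p = 0.44), with Myc at 0.38 (adjusted p = 0.722). Of 13 genes of the E2F, RB and DREAM complexes 0 were called in either tissue (2 and 1 at an unadjusted p below 0.05), with Rbl1 at 0.63 (adjusted p = 0.824), Rbl2 at 0.25 (adjusted p = 0.381) and E2f6 at −0.22 (adjusted p = 0.457) in the lung. In adipose tissue E2f7 was at 1.89 (adjusted p = 0.655), Rb1 at 0.53 (adjusted p = 0.449) and Lin52 at −0.43 (adjusted p = 0.525). The 14 genes of the ubiquitin ligases APC and SCF held 0 calls (2 and 0 at an unadjusted p below 0.05), with Skp2 at −0.53 (adjusted p = 0.843), Anapc10 at 0.39 (adjusted p = 0.397) and Fbxo5 at −0.38 (adjusted p = 0.469) in the lung, and Fzr1 at −0.46 (adjusted p = 0.509), Anapc5 at 0.24 (adjusted p = 0.701) and Anapc4 at 0.22 (adjusted p = 0.706) in adipose tissue. The 12 p53 targets held 0 calls too (2 and 0 at an unadjusted p below 0.05), with Bbc3 at 0.63 (adjusted p = 0.154), Phlda3 at −0.41 (adjusted p = 0.376) and Btg2 at 0.39 (adjusted p = 0.807) in the lung, and Phlda3 at 0.72 (adjusted p = 0.57), Plk2 at 0.66 (adjusted p = 0.706) and Plk3 at 0.46 (adjusted p = 0.763) in adipose tissue. Of the 32 replication genes and 36 mitotic genes 0 were called in adipose tissue (2 and 0 at an unadjusted p below 0.05), where the widest were Gins2 at −0.96 (adjusted p = 0.465), Gmnn at 0.59 (adjusted p = 0.463) and Clspn at −0.58 (adjusted p = 0.659) for replication, and Fam83d at −1.06 (adjusted p = 0.59), Pbk at 1.01 (adjusted p = 0.82) and Nek2 at −0.92 (adjusted p = 0.658) for mitosis.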

How the data were processed

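RNA of the lungs and the adipose tissue of 5 HDM and 3 control rats was measured on 16 single-color Agilent rat arrays from 50 ng of RNA each. The authors deposited the spot intensity of each array on a linear scale, extracted and background-subtracted with Agilent Feature Extraction 12.0.3.1, without normalization between arrays. A series table, also deposited, holds log2 values centered per probe, with 39 cells that were no number. It served as an alternative, its normalization steps are not given in the sources used here, and 0 of its columns were unused.

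From the intensities, control probes and outlier spots were left out, spots of a probe were averaged as log2 values, and each array's 75th percentile was taken off. HDM and control rats were compared in each tissue with limma 3.58.1 (lmFit, eBayes) in R 4.3.3, with Benjamini–Hochberg adjustment over 45598 probes. A call needed an adjusted p below 0.05 and a fold above 1.5, the thresholds of the study's methods, whose unpaired test was run as an alternative (the methods' t-test) with adjustment over all probes and, since the study filtered on fold first, over those past 1.5-fold. Tissues were compared within rats. Symbols came from RefSeq accessions and a table of 47357 rat genes, and promoters from RefSeq (GRCr8). A probe counted as well above background by the scanner's own mark. Python 3.11.15 and matplotlib 3.10.9 drew the figures. The steps were tested on simulated data. With 3 to 5 arrays per group, their number limits the precision.

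Alternatives were other normalizations, array weights, a filter on dim probes, other adjustments, single rats left out, and the replicate number or the slide row as a block. The members and all lists were chosen with earlier results of these data known. Values by rat are given for Mki67, Cdk1, Ccnb1, Plk1, Foxm1, Pcna, Mcm2, Rrm2, Ccne1 and E2f1 and for the 4 mitotic and 3 S-phase members with the widest change in each tissue among those well above background on every array of at least 1 group, and other lists are named by called genes, Cdkn1a and their 3 widest. Cdc20, Kif11, Mcm3, the promoters shown, the rats left out together and the t-test with the fold filter first were chosen after their values were seen.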

Additional observations from a re-analysis of the deposited data

Results flagged for a closer look

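Dixon's ratio was computed over the 5 HDM rats for each of the 37 members and each list median in both tissues, 78 groups in all, of which 4 passed the critical value of 0.71. Chance alone flags about 1 in 20 such groups. In the lung, Cdca3 stood at −1.56 in HDM rat 1, lowest of the 5 HDM rats, and Pcna at 2.85 in HDM rat 3, highest of them. In adipose tissue, Prc1 stood at −1.21 in HDM rat 4, highest of them, and the median of the S-phase members against the control mean at 0.25 in the same rat.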

How the results depend on the processing

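The count of members called in the lung was 0 in all but 2 alternatives, array weights and adjustment over the probes past 1.5-fold (a filter on the same comparison), each of which called 1 member, Ccne2. In adipose tissue, and for the difference between the tissues, it was 0 in every alternative run. Over all probes, calls in the lung were 390, between 100 and 333 with 1 rat left out, 41 without control rat 1 and HDM rat 1, 0 with the replicate block, 25 with the slide row as a block, 166 in a joint fit of both tissues, 1329 with adjustment past 1.5-fold (980 with the methods' t-test), 705 with array weights and 751 without dim probes. In adipose tissue they were 0, but 338 with array weights, 106 in the joint fit, 28 with adjustment past 1.5-fold (1 with the methods' t-test), 7 with quantile normalization, 5 without dim probes, 3 with the array median, and 1 each with normexp and with the slide row as a block, none of them a member.

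The S-phase median in the lung was 0.072 with the mean over all probes of each gene, and the mitotic median there was 0.027 without control rat 1 and HDM rat 1, an alternative chosen after the data were seen. The S-phase median in adipose tissue was 0.26 with scaling to the array median. The count of 12 members higher in the lung of control rats was 7 with quantile normalization, 5 with normexp and quantile normalization, 19 with scaling to Gapdh and Hprt1, and 0 to 1 with 1 rat left out, and 16 with no replicate block (tissues not paired by rat). The causes were not tested. Of 432 lung values of single named members over the alternatives, 7 moved by more than 1 SD and 17 had the other sign, and of 400 adipose values 9 moved and 50 had the other sign.

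HDM and control rats with the same number did not deviate together in the lung (correlations −0.06, −0.08 and 0.05), and in adipose tissue the correlations were 0.59, 0.14 and 0.097, so the number was not taken as a pairing. With the replicate number as a block 0 members and 0 of all probes were called in either tissue, and the mitotic medians were −0.26 in the lung and −0.35 in adipose tissue. With 3 control rats and dim probes in adipose tissue, the 95% confidence interval of 20 of 24 mitotic members in each tissue reached 1.5-fold, so changes of that size were not excluded at this number of arrays.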
